A study of Mus musculus with 42 samples.

Results

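The T cell receptor (TCR) complex and its coreceptors were followed here through 10 genes, Cd3e, Cd3d, Cd3g, Cd247, Cd8a, Cd8b1, Cd4, Lck, Zap70 and Cd28, taken by name from a table of 26811 genes. All 10 were present and all 10 were among the 16932 genes tested. RNA was measured by bulk poly(A) RNA-seq in 42 MC38 tumors, 1 library per tumor. MC38, a mouse colon carcinoma line, was grown under the skin of female CC075/UncJ x C57BL/6J F1 mice aged 8 to 12 weeks. The 5 treatment groups were isotype, with control antibodies throughout (5 tumors), and aPD1, with control antibodies in place of the blocking ones (6 tumors). A further 9 tumors received aPD1 + aGM-CSF, 11 received aPD1 + aIL2RB, and 11 received all of these antibodies as aPD1 + aGM-CSF + aIL2RB. Blocking antibodies (100 ug aGM-CSF, 200 ug aIL2RB) were given every 3 days from engraftment. A single dose of 200 ug aPD1 or isotype followed at a tumor size of 75 to 110 mm3, and tumors were taken 48 h later. All groups other than isotype thus carried aPD1, and all mice shared 1 F1 genotype and 1 tumor line.

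An alpha-beta T cell reads antigen through its TCR, and the CD3 chains encoded by Cd3e, Cd3d, Cd3g and Cd247 carry the signal into the cell. CD8, built of the products of Cd8a and Cd8b1, and CD4 are the coreceptors of cytotoxic and of helper or regulatory T cells, and they bring the kinase Lck to the receptor, after which Zap70 is recruited. CD28 is the costimulatory receptor. PD-1 restrains this signal, and IL2RB is a receptor chain for IL-2 and IL-15 that is borne by NK cells and by many CD8 T cells.

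The members lie on 4 chromosomes of GRCm38. Cd3e (ENSMUSG00000032093, chr9:44998740-45009627, minus strand), Cd3d (ENSMUSG00000032094, chr9:44981786-44987339, plus strand) and Cd3g (ENSMUSG00000002033, chr9:44969572-44980431, minus strand) are neighbors, and so are Cd8a (ENSMUSG00000053977, chr6:71373427-71379173, plus strand) and Cd8b1 (ENSMUSG00000053044, chr6:71322788-71337494, plus strand). Cd4 (ENSMUSG00000023274, chr6:124864692-124888221, minus strand) lies farther along chromosome 6. Cd247 (ENSMUSG00000005763, chr1:165788681-165877277), Zap70 (ENSMUSG00000026117, chr1:36761798-36782818) and Cd28 (ENSMUSG00000026012, chr1:60716800-60773359) are on the plus strand of chromosome 1, and Lck (ENSMUSG00000000409, chr4:129548344-129573641) is on the minus strand of chromosome 4. Exons of Cd247 overlap those of Gm16565 and Pou2f1, and Cd247 alone among the members had counts that were not whole (in 26 tumors), so its values are less certain. Exons of Cd3e overlap Gm48719 on the opposite strand, and those of Lck overlap Mir8119.

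The RefSeq promoter table (GRCm38.p6) held 7 of the 10 members. The 150 bases just before the RefSeq start of 5 of them are shown because these genes, 4 CD3 chain genes and Cd8a, differ in how clearly they changed under aIL2RB below. For Cd3e that start lies inside the gene as placed above. The last bases of its window, with most of the marked ETS match, thus fall within the gene. The windows, each 5′ to 3′ on the gene's own strand, are chr9:45009612-45009761 for Cd3e, chr9:44981636-44981785 for Cd3d, chr9:44980432-44980581 for Cd3g, chr1:165788531-165788680 for Cd247 and chr6:71373277-71373426 for Cd8a. Capitals mark matches, on either strand, to CANNTG (E-box), AGGAAG (ETS core), TGTGGT (RUNX core) or CTTTGA (TCF/LEF core), and no marked matches overlap.
Cd3e: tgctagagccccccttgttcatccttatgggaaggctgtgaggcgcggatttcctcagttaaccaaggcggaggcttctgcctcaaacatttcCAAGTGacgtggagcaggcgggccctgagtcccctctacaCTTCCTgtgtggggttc
Cd3d: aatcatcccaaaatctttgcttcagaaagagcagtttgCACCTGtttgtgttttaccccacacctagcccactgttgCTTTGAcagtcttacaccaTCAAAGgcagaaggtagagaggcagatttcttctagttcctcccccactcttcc
Cd3g: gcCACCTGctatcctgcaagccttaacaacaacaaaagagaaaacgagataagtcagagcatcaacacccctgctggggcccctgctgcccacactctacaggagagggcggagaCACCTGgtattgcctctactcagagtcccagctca
Cd247: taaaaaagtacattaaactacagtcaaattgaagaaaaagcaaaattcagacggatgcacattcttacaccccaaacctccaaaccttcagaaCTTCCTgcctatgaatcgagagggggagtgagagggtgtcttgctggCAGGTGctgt
Cd8a: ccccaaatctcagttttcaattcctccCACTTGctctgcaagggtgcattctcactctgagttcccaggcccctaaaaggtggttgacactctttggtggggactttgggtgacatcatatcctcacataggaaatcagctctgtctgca
The E-box letters were found in 5 of the 5 windows and in 47.7% of all 32851 windows of this length. The ETS core was in 2 of 5 (19.7% of all), the TCF/LEF core in 1 of 5 (7.93%) and the RUNX core in 0 of 5 (8.40%). A match is a run of letters only.

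Library totals ranged from 7155486 to 24101674 counts, and only 1 tumor (aPD1 + aGM-CSF + aIL2RB replicate 4) was below 15109227. The share of counts from 5 rRNA genes was 1.72% to 8.55% in isotype tumors and 4.57% to 17.9% in aPD1 tumors. The tumors parted into a first set of 22 (the lower replicate numbers of every group) and a second set of 20, whose origin is not given in the sources used here. This split was known from earlier results of these data and is named in no label. Tests that use it are thus a description of these tumors and not tests of a split fixed in advance. Within aPD1 + aGM-CSF + aIL2RB, replicate 1 stood apart with the highest level of all 10 members. Levels are given in CPM, the usual depth-scaled count unit, with library sizes adjusted by TMM, a method that corrects for differences in RNA composition. A difference between groups is a log2 fold change from edgeR's quasi-likelihood test over all 42 tumors, with its standard error (SE) and a Benjamini-Hochberg adjusted p over all tested genes, called at 0.05. In bulk tumor RNA, fewer T cells and less RNA per T cell cannot be told apart.

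Per kilobase of exon, the order of the members in isotype tumors was led by the CD8 chains. Mean levels there were 4.09 CPM per kb for Cd8a, 3.56 for Cd8b1 and 3.09 for Lck. Cd4 stood at 0.509, close to Cd247 at 0.539 and Cd28 at 0.423. Cd3g, Cd3d and Cd3e lay between, at 1.97, 1.85 and 1.402, as did Zap70 at 1.13. In aPD1 + aIL2RB tumors the order was compressed, and Lck (0.794), Cd8a (0.698), Cd8b1 (0.597), Cd3d (0.590) and Cd4 (0.478) lay within the spread of one another.

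**Figure D1:**
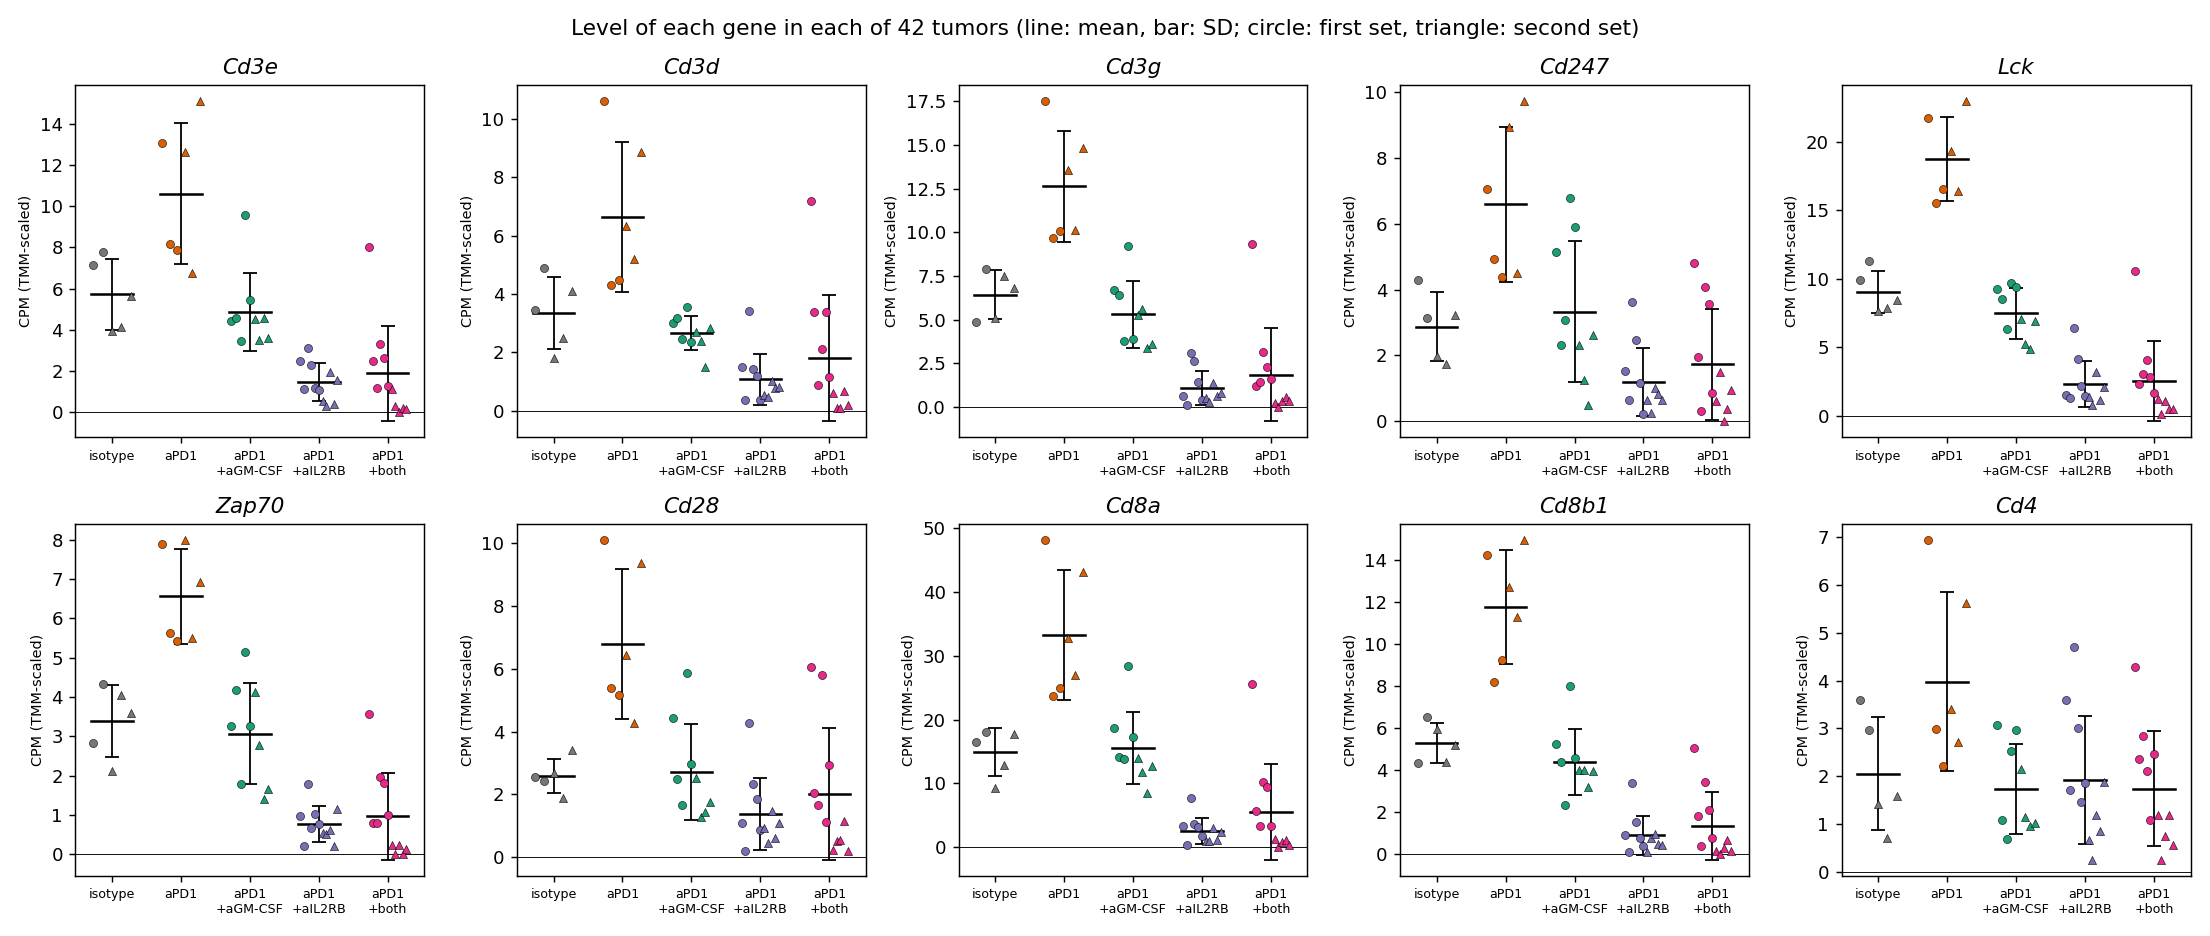
Level of each member in CPM (y axes, linear) in each tumor of the 5 groups (x axes), with group mean and SD and with circles for the first and triangles for the second set. For Cd8a the aPD1 tumors begin at 23.7 CPM, above every isotype tumor, and the aPD1 + aIL2RB tumors end at 7.63, below every isotype tumor, while for Cd4 these groups overlap.

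The first comparison asked how the genes stood 48 h after aPD1. All 10 members had a positive log2 fold change, from 0.89 to 1.39 with a median of 1.02, but none passed the test in the fit of all tumors by edgeR or by DESeq2, with 6.17% of all genes called higher by edgeR. Cd8a was at 16.5, 18.1, 9.17, 12.9 and 17.7 CPM in the 5 isotype tumors and between 23.7 and 48.2 (median 29.9) in aPD1 tumors. The groups did not overlap, at a log2 difference of 1.16 (SE 0.62, adjusted p = 0.242).

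Cd8b1, the partner chain of Cd8a, was at 4.34, 6.53, 5.95, 4.39 and 5.18 CPM in isotype tumors and at 8.22 to 14.99 (median 12.0) in aPD1 tumors, again without overlap (log2 1.16, SE 0.59, adjusted p = 0.218). Cd4 was at 3.59, 2.97, 1.41, 0.717 and 1.59 CPM in isotype tumors and at 2.21 to 6.95 (median 3.20) in aPD1 tumors. These overlapped, although all 6 aPD1 tumors lay above the isotype median (log2 0.95, SE 0.53, adjusted p = 0.269).

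Of the pan-T genes, Cd3e, the CD3 epsilon chain, was at 7.13, 7.76, 3.93, 4.14 and 5.65 CPM in isotype and 6.77 to 15.1 (median 10.4) in aPD1 tumors, with overlap (log2 0.89, SE 0.58, adjusted p = 0.352). Cd28 had the largest of the 10 differences (log2 1.39, SE 0.58, adjusted p = 0.127). In all, 7 members had aPD1 tumors wholly above isotype tumors, against 3.38% of all tested genes: Cd3g, Cd247, Cd8a, Cd8b1, Lck, Zap70 and Cd28. Markers of other leukocytes were higher too, with 5 of 6 macrophage genes called (median log2 0.61) and a summed macrophage level of 1768 to 2097 CPM in isotype and 2033 to 3911 in aPD1 tumors. The pan-leukocyte genes were called higher in 3 of 3, B cell genes in 2 of 6 and MC38 and stroma genes in 3 of 7. The part of these cells in the members' values was not tested.

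The choice of tumors in the fit decides these calls. With isotype and aPD1 tumors alone, 8 of the 10 were called higher (all but Cd3d and Cd4), against 6.77% of all genes, with adjusted p of 0.00665 for Cd8a and 0.173 for Cd4 (edgeR). In the second set alone 4 were called (Cd8a, Cd8b1, Cd4 and Lck), against 9.33% of all genes, and in the first set 0, against 0.00575%. At an unadjusted p under 0.05, 2 of the 10 passed in the fit of all tumors, against 14.5% of all genes higher at that level.

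With aGM-CSF added to aPD1, Lck and Cd8b1 fell and the other members did not pass the test. The comparisons with aPD1 all share its 6 tumors, and those with isotype its 5. All 10 log2 differences from aPD1 were negative, from -1.42 to -0.99 (median -1.22, beside 0.01 over all tested genes), and 2 were called, Lck and Cd8b1, against 8.75% of all genes called lower. Lck, the kinase carried by the coreceptors, was at 15.5 to 22.999 CPM (median 17.95) under aPD1 and at 4.85 to 9.68 (median 7.04) under aPD1 + aGM-CSF, and no tumors overlapped. It fell by 1.33 on the log2 scale (SE 0.41, adjusted p = 0.0241). Cd8b1 fell by 1.42 (SE 0.50, adjusted p = 0.0482), from a median of 12.0 to 3.98 CPM, also without overlap. Overlap was absent for Cd3d, Cd3g and Zap70 too, which were not called, and the share of all genes without overlap was not taken for this pair.

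The other 8 ranged in adjusted p from 0.0609 (Cd28) to 0.220 (Cd247), and 9 of 10 had an unadjusted p under 0.05, against 15.3% of all genes lower at that level. Cd8a was at 8.51 to 28.3 CPM (median 13.97) under aPD1 + aGM-CSF, with a log2 difference of -1.11 (SE 0.52, adjusted p = 0.154). Cd4 was at 0.696 to 3.07 CPM (median 1.15), with a log2 difference of -1.20 (SE 0.45, adjusted p = 0.0704). The CD8 and CD4 genes thus had differences of like size here. The count of called members was 10 of 10 with set as a term (10.3% of all genes), 10 in the second set (11.1%), 0 in the first set (0.069%) and 9 in a fit of these groups alone (10.5%). Cd247 had a log2 difference of -0.23 in the first set and of -2.24 in the second (adjusted p = 0.0117). Of the macrophage genes 5 of 6 also fell from aPD1 (median log2 -0.69), as did 3 of 3 pan-leukocyte genes, 0 of 6 B cell genes and 2 of 7 MC38 and stroma genes, and their part in the members' values was not tested. In the fit of all groups, the count of called members was 0 without aPD1 replicate 4 or 6. That count was 1 without aPD1 replicate 1 or 5 or any single aPD1 + aGM-CSF tumor other than replicate 4.

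Against isotype, aPD1 + aGM-CSF tumors had no member called in either direction by edgeR or DESeq2 (0 at an unadjusted p under 0.05 by edgeR, against 2.19% of all genes lower at that level), with 0.0% of all genes called lower. The log2 differences lay between -0.33 and 0.21. The medians in aPD1 + aGM-CSF tumors were 13.97 CPM for Cd8a (isotype 16.5), 4.51 for Cd3e (isotype 5.65) and 1.15 for Cd4 (isotype 1.59).

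**Figure D2:**
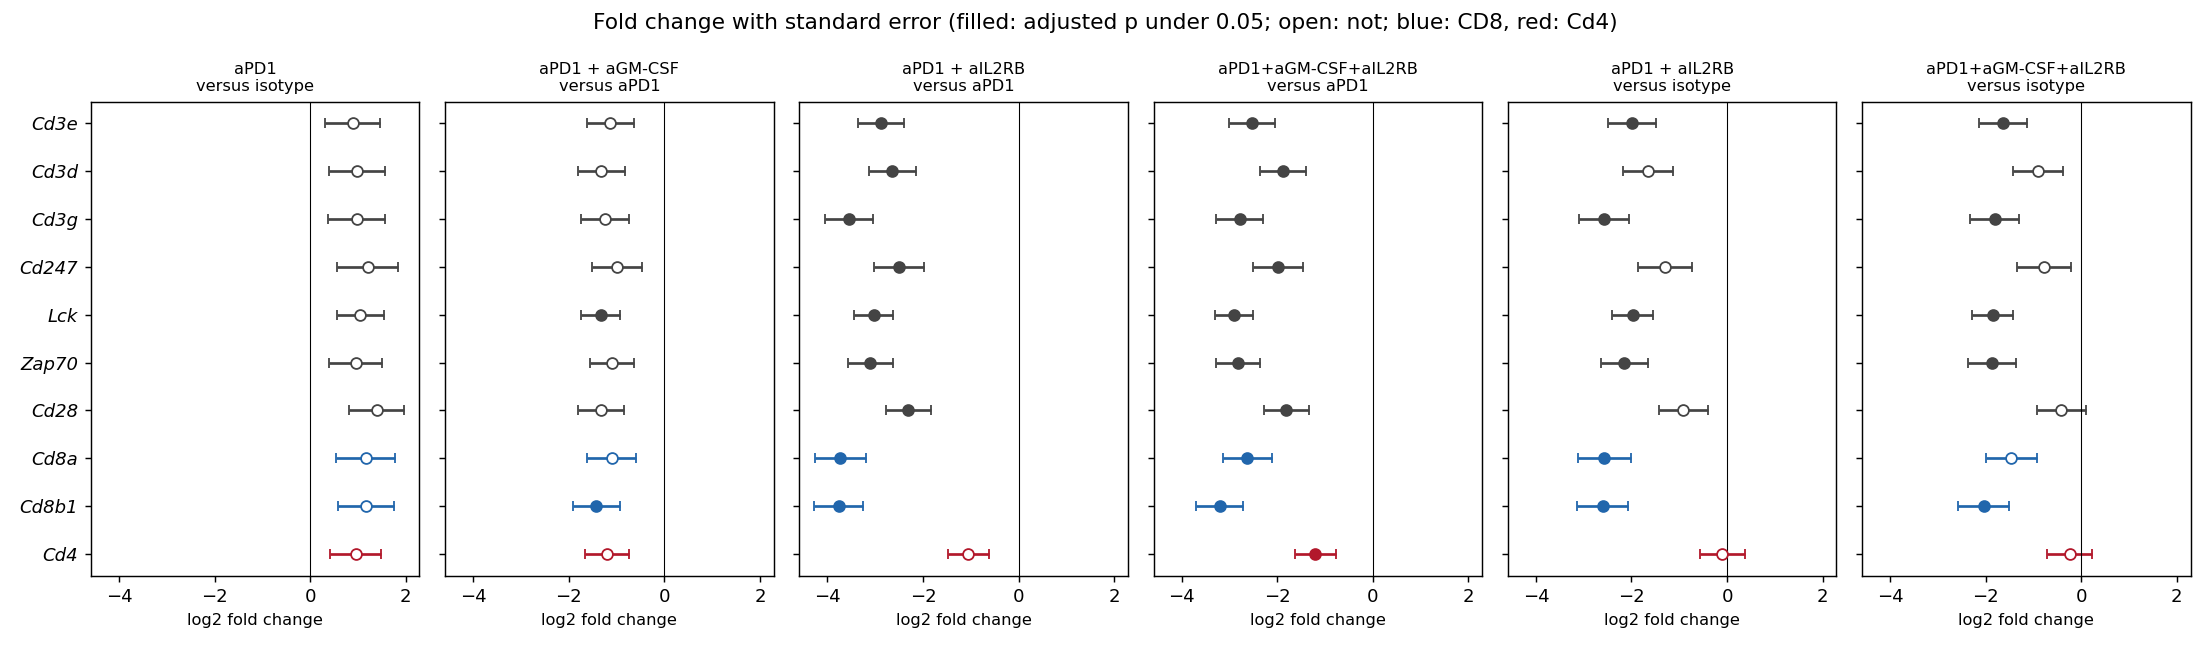
Log2 fold change (x axes) of each member (rows) with its SE in 6 comparisons, from edgeR over all tumors. Filled points have an adjusted p under 0.05, blue marks the CD8 genes and red marks Cd4, which in the aPD1 + aIL2RB panels lies nearer to 0 than every other member.

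Under aPD1 + aIL2RB, the CD8 chains, Cd3e, Cd3g and the kinases fell from isotype, while Cd4 did not pass the test. Against aPD1, 9 of the 10 members fell, with 14.5% of all genes called lower, and the exception was Cd4. By set, 9 members were called lower than aPD1 in the first (8.84% of all genes) and 10 in the second (13.3%). Against isotype, 6 of 10 fell (Cd3e, Cd3g, Cd8a, Cd8b1, Lck and Zap70), with 1.51% of all genes called lower. For these 6, no aPD1 + aIL2RB tumor reached the lowest isotype tumor, which held for 0.532% of all tested genes. Against isotype, 4 members were called in the first set (1.27% of all genes) and 7 in the second (0.783%), and Cd3g (adjusted p = 0.0745) and Cd8b1 (adjusted p = 0.074) were not called in the first. Relative to aPD1, 5 of 6 macrophage genes (median log2 -0.78), 3 of 3 pan-leukocyte genes, 4 of 6 B cell genes and 3 of 7 MC38 and stroma genes fell as well, and 1 of the last list rose. Their part in the members' values was not tested.

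The largest falls from aPD1 were those of the coreceptor genes of cytotoxic cells, with that of Cd3g close to them (log2 -3.55, SE 0.51, adjusted p = 1.41e-06). Cd8a was at 0.373 to 7.63 CPM (median 2.32) in aPD1 + aIL2RB tumors. It fell by 3.73 from aPD1 (SE 0.53, adjusted p = 1.23e-06) and by 2.57 from isotype (SE 0.55, adjusted p = 0.00528) on the log2 scale. Cd8b1 was at 0.0898 to 3.40 CPM (median 0.756), and it fell by 3.77 (SE 0.51, adjusted p = 5.6e-07) and by 2.61 (SE 0.53, adjusted p = 0.00324). All 11 tumors were below every aPD1 and every isotype tumor for both genes.

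Cd4 was at 0.252 to 4.71 CPM (median 1.70) in aPD1 + aIL2RB tumors, a range that spans all 5 isotype tumors. Its log2 difference from isotype was -0.10 (SE 0.47, adjusted p = 0.937), with 5 of 11 tumors below the isotype median. Its log2 difference from aPD1 was -1.05 (SE 0.43, adjusted p = 0.063). That difference passed with set as a term (adjusted p = 0.0032) and in the second set (log2 -2.03, adjusted p = 0.00317), and did not in the first (log2 -0.57, adjusted p = 0.426).

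Among the CD3 chains, Cd3g was at 0.106 to 3.10 CPM (median 0.652) against 4.86, 7.90, 5.09, 7.51 and 6.82 in isotype tumors, and it fell by 2.58 on the log2 scale (SE 0.53, adjusted p = 0.00337). Cd3e, at 0.302 to 3.10 CPM (median 1.16), fell by 1.99 (SE 0.51, adjusted p = 0.0224), a call that was lost without isotype replicate 2 (adjusted p = 0.0672). Cd3d (log2 -1.66, SE 0.52, adjusted p = 0.0665) and Cd247 (log2 -1.30, SE 0.56, adjusted p = 0.198) did not pass against isotype. Cd3d was called with set as a term (log2 -1.85, adjusted p = 0.0156), in the second set (adjusted p = 0.0144) and in a fit of these groups alone (adjusted p = 0.0323), while Cd247 was called in none of these. Both fell from aPD1, by 2.64 (SE 0.49, adjusted p = 6.06e-05) and 2.50 (SE 0.52, adjusted p = 0.00026).

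The kinases fell with the CD8 chains. Lck was at 0.756 to 6.44 CPM (median 1.48) against 9.91, 11.3, 7.66, 7.89 and 8.45 in isotype tumors, a log2 fall of 1.98 (SE 0.42, adjusted p = 0.0054). Zap70 was at 0.204 to 1.79 CPM (median 0.655) against 2.83, 4.34, 2.12, 4.05 and 3.60, and fell by 2.15 (SE 0.49, adjusted p = 0.00951). Neither group overlapped with isotype. The costimulatory gene Cd28 overlapped with isotype (log2 -0.92, SE 0.51, adjusted p = 0.343) and fell by 2.31 from aPD1 (SE 0.47, adjusted p = 0.000204).

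Between the blockades, 6 members were lower under aPD1 + aIL2RB than under aPD1 + aGM-CSF (Cd3e, Cd3g, Cd8a, Cd8b1, Lck and Zap70), against 0.898% of all genes. Cd8a fell by 2.63 on the log2 scale (SE 0.50, adjusted p = 0.00177), whereas Cd4 had a difference of 0.15 (SE 0.40, adjusted p = 0.927). The call of Cd3e was lost when any 1 of 8 tumors was left out (replicate 1 or 4 of aPD1 + aGM-CSF, or replicate 2, 5, 6, 7, 8 or 10 of aPD1 + aIL2RB, adjusted p up to 0.0922) and in the second set (adjusted p = 0.0829). Cd8b1 was not called in the first set (adjusted p = 0.0509).

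The ratio of CD8 to CD4 transcripts was then taken within each tumor, as log2 of the counts plus 0.5. It does not depend on library size, other than at counts so low that the added 0.5 matters. In the 5 isotype tumors the summed counts were 1612 for Cd8a and 220 for Cd4, and in the 11 aPD1 + aIL2RB tumors 564 and 430. The mean log2 Cd8a/Cd4 ratio was 3.01 ± 0.77 (SD, n = 5) in isotype, 3.12 ± 0.26 (n = 6) in aPD1 and 3.25 ± 0.58 (n = 9) in aPD1 + aGM-CSF tumors. It was 0.35 ± 1.00 (n = 11) in aPD1 + aIL2RB and 0.47 ± 1.82 (n = 11) in aPD1 + aGM-CSF + aIL2RB tumors.

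The ratio thus fell where IL2RB was blocked. It was lower by 2.66 under aPD1 + aIL2RB than under isotype (exact two-sided permutation test p = 0.000229, adjusted over 30 ratio tests 0.0011) and by 2.77 than under aPD1 (exact p = 8.08e-05, adjusted 0.000606). All 11 aPD1 + aIL2RB tumors, with a highest value of 1.67, were below the lowest isotype tumor at 2.19. Within the first set the difference from isotype was -2.46 (exact p = 0.0357) and within the second -2.57 (exact p = 0.0179). With aPD1 or aPD1 + aGM-CSF the ratio differed from isotype by 0.11 (exact p = 0.753) and 0.24 (exact p = 0.5), differences inside the spread between tumors.

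The split of this shift between the coreceptors was read against Cd3e, a gene that all T cells share. The log2 Cd4/Cd3e ratio was -1.63 ± 0.57 (SD, n = 5) in isotype and 0.36 ± 0.48 (n = 11) in aPD1 + aIL2RB tumors, a rise of 1.99 (exact permutation p = 0.000229, adjusted 0.0011). It rose by 1.82 from aPD1 (exact p = 8.08e-05, adjusted 0.000606) and, relative to aPD1 + aGM-CSF tumors, by 1.94 (exact p = 1.19e-05, adjusted 0.000179). The log2 Cd8a/Cd3e ratio was 1.38 ± 0.23 (n = 5) in isotype and 0.71 ± 0.84 (n = 11) in aPD1 + aIL2RB tumors, which did not pass (difference -0.68, exact p = 0.0856, adjusted 0.161). It was lower by 0.95 than in aPD1 tumors (exact p = 0.00776, adjusted 0.0194) and by 0.96 than in aPD1 + aGM-CSF tumors (exact p = 0.00114, adjusted 0.00379).

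Those CD8 to CD3 calls depend on the CD3 gene. With Cd3g in place of Cd3e the Cd8a ratio differed from aPD1 by -0.08 (adjusted p = 0.914, exact permutation) and from aPD1 + aGM-CSF by -0.23 (adjusted p = 0.546), and from isotype by 0.11 (adjusted p = 0.914). With Cd3d in its place the differences were -1.22 from aPD1 (adjusted p = 0.00121), -1.36 from aPD1 + aGM-CSF (adjusted p = 0.000357) and -1.05 from isotype (adjusted p = 0.00549, exact permutation), so that all 3 passed. With Cd3e, the call against aPD1 was also lost without aPD1 replicate 1 (-0.90, adjusted p = 0.0549) or replicate 5 (-0.88, adjusted p = 0.0589). In aPD1 + aIL2RB tumors, 2 of 11 had fewer than 10 counts of Cd8a, Cd4 or both.

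**Figure D3:**
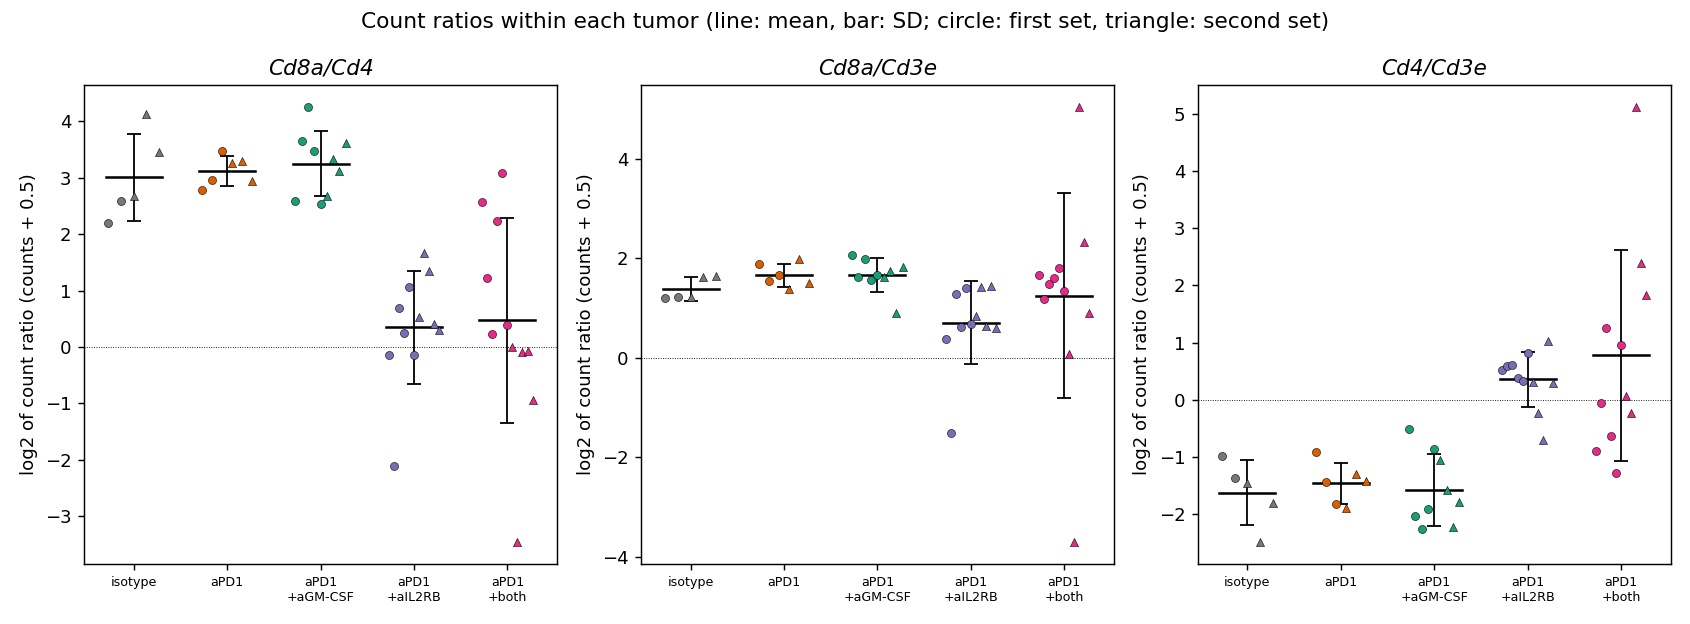
Log2 ratio of counts within each tumor (y axes) for Cd8a/Cd4, Cd8a/Cd3e and Cd4/Cd3e in the 5 groups (x axes), with mean, SD and set (circle first, triangle second). The Cd8a/Cd4 ratio of aPD1 + aIL2RB tumors ends at 1.67, below the isotype minimum of 2.19, and the Cd4/Cd3e ratio shows the reverse order.

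With both blocking antibodies, all 10 members were called lower than under aPD1, against 14.3% of all genes. The largest falls were those of Cd8b1 (log2 -3.21, SE 0.50, adjusted p = 6.1e-06), Lck (log2 -2.91, SE 0.41, adjusted p = 1.3e-06) and Zap70 (log2 -2.82, SE 0.47, adjusted p = 1.56e-05). Cd4 had the smallest (log2 -1.20, SE 0.43, adjusted p = 0.0337), and its call was lost without aPD1 replicate 1 or 6, or without replicate 5, 7, 8, 9 or 11 of the treated group (adjusted p up to 0.116). Cd8a fell by 2.63 (SE 0.51, adjusted p = 0.000127) and ranged from 0 to 25.6 CPM (median 3.25), the widest range of any group. Relative to aPD1, 10 of 10 NK genes (median log2 -3.62) and 5 of 6 macrophage genes (median log2 -0.79) fell too. So did 3 of 3 pan-leukocyte genes, 3 of 6 B cell genes and 2 of 7 MC38 and stroma genes, and the part of all these was not tested.

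Against isotype, 5 of 10 were called lower (Cd3e, Cd3g, Cd8b1, Lck and Zap70), against 4.51% of all genes. Cd8a was not (log2 -1.46, SE 0.54, adjusted p = 0.0725), although it was with set as a term (log2 -1.95, adjusted p = 0.00831), and Cd4 had a log2 difference of -0.25 (SE 0.47, adjusted p = 0.785). The count was 3 without isotype replicate 2 and 2 without isotype replicate 4, and 1 in a fit of these groups alone (3.6% of all genes). It was 0 in the first set (1.0%) and 8 in the second (6.52%). Against aPD1 + aGM-CSF, 3 members were called lower (Cd8b1, Lck and Zap70, against 1.15% of all genes), and this count was 6 without aPD1 + aGM-CSF + aIL2RB replicate 1, and 1 without replicate 9 of that group or replicate 4 or 6 of aPD1 + aGM-CSF. It was 6 with set as a term (2.2% of all genes). In the first set it was 0 (0.161%), in the second 8 (4.93%), and in a fit of these groups alone 0 (1.35%).

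The log2 Cd8a/Cd4 ratio was lower by 2.65 than under aPD1 (exact permutation p = 0.00234, adjusted 0.00703) and by 2.54 than under isotype (exact p = 0.00916, adjusted 0.0211). The latter was lost without isotype replicate 4 (-2.26, adjusted p = 0.0693) or 5 (-2.43, adjusted p = 0.0612). Within the first set the difference from isotype was -0.77 (exact p = 0.464) and from aPD1 -1.46 (exact p = 0.0833). Within the second set these were -4.33 (exact p = 0.0179) and -4.07 (exact p = 0.0179). Replicate 8 of this group, with 0 counts of Cd8a, had a Cd8a/Cd4 ratio of -3.46 that the added 0.5 sets. Without it the second-set values were -3.70 (exact p = 0.0286) and -3.44 (exact p = 0.0286). The log2 Cd4/Cd3e ratio was higher by 2.24 than under aPD1 (exact p = 0.00719, adjusted 0.0194), by 2.40 than under isotype (exact p = 0.0108, adjusted 0.0231) and by 2.36 than under aPD1 + aGM-CSF (exact p = 0.000554, adjusted 0.00208). These differences of means rest on few counts, as 4 of the 11 tumors had fewer than 10 counts of Cd4, Cd3e or both. The group mean was 0.78 and its median 0.072, and replicate 9, with 0 counts of Cd3e, had a ratio of 5.13 that the added 0.5 sets. Without replicate 9 the differences were 1.81 (adjusted p = 0.0112), 1.97 (adjusted p = 0.0125) and 1.93 (adjusted p = 0.00179) by the same exact permutation tests. With Cd3d in place of Cd3e, the difference from isotype was 1.47 and did not pass (adjusted p = 0.061, exact permutation). Those from aPD1 (1.41, adjusted p = 0.0375) and aPD1 + aGM-CSF (1.404, adjusted p = 0.0196) did. With all 11 tumors but without isotype replicate 4 or 5, the difference from isotype was 2.19 (adjusted p = 0.0738) or 2.36 (adjusted p = 0.0575). Relative to isotype this ratio differed by 1.08 among first-set tumors (exact p = 0.179), while second-set tumors gave 3.76 (exact p = 0.0357). Relative to aPD1 these values were 1.28 (exact p = 0.0714) and 3.38 (exact p = 0.0357). Without replicate 9 the second-set values were 2.94 (exact p = 0.0286) and 2.55 (exact p = 0.0571). The log2 Cd8a/Cd3e ratio did not pass in this group. It differed by -0.41 from aPD1 (exact p = 0.587), by -0.14 from isotype (exact p = 0.838), with -0.42 relative to aPD1 + aGM-CSF tumors (exact p = 0.581). With Cd3d in place of Cd3e the first and the last passed, at -1.24 (adjusted p = 0.0417) and -1.38 (adjusted p = 0.00509, exact permutation). The exact p-values given for ratios within a set are unadjusted, and none of these was under 0.05 once adjusted over the 30 tests (lowest 0.0536).

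Compared with aPD1 + aIL2RB, aPD1 + aGM-CSF + aIL2RB tumors had no member called, with 0.00591% of all genes called higher. The log2 differences ran from -0.15 (Cd4) to 1.10 (Cd8a, SE 0.49, adjusted p = 0.685, the only 1 of the 10 with an unadjusted p under 0.05, against 3.43% of all genes higher at that level). DESeq2 also called 0. The Cd8a/Cd4 ratio differed by 0.12 (permutation p = 0.853) over all tumors. The first set alone gave 1.69 (exact p = 0.0303), and the second gave -1.76 (exact p = 0.00794). Without replicate 8, whose Cd8a count was 0, the second-set value was -1.12 (exact p = 0.0159). Cd8a itself had a log2 difference of 1.56 in the first set (adjusted p = 0.576) and of -1.34 in the second (adjusted p = 0.114), with an interaction of -2.90 (adjusted p = 0.0439, edgeR).

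The set of tumors marked the doubly blocked group more than any other. Cd8a in aPD1 + aGM-CSF + aIL2RB tumors was at 3.25 to 25.6 CPM (median 7.47, n = 6) in the first set and at 0 to 1.198 (median 0.712, n = 5) in the second. Zap70 was at 0.784 to 3.56 CPM in the first set and at 0 to 0.240, or 0 to 5 counts, in the second. The sets did not overlap for these genes, nor for Cd3e, Cd3d, Cd3g and Lck, and the share of all genes without overlap was not taken. Cd4 ranged from 1.08 to 4.30 CPM in the first set and from 0.257 to 1.198 in the second. The leukocyte gene Ptprc had a mean of 208 CPM in the first set and 99.0 in the second in this group. In aPD1 tumors its means were 263 and 361, and the part of leukocyte content in the members' values was not tested.

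The counts of 0 lay in replicates 8, 9 and 10 of this group and allow up to 0.154, 0.134 and 0.156 CPM in those tumors, respectively (3 counts, for counting error only). The effect relative to aPD1 was tested for a difference between sets. Cd8a had a log2 difference from aPD1 of -1.77 (adjusted p = 0.0408) in the first set and of -5.72 (adjusted p = 5.44e-09) in the second, an interaction of -3.94 (adjusted p = 0.00241). Of the 10 members, 8 had such an interaction, all but Cd247 and Cd4, with 6.55% of all genes called in that direction. Within the first set 6 of 10 members were called lower than aPD1 (2.45% of all genes) and within the second 10 of 10 (16.7%). For Cd4 the interaction was -1.64 (adjusted p = 0.134).

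**Figure D4:**
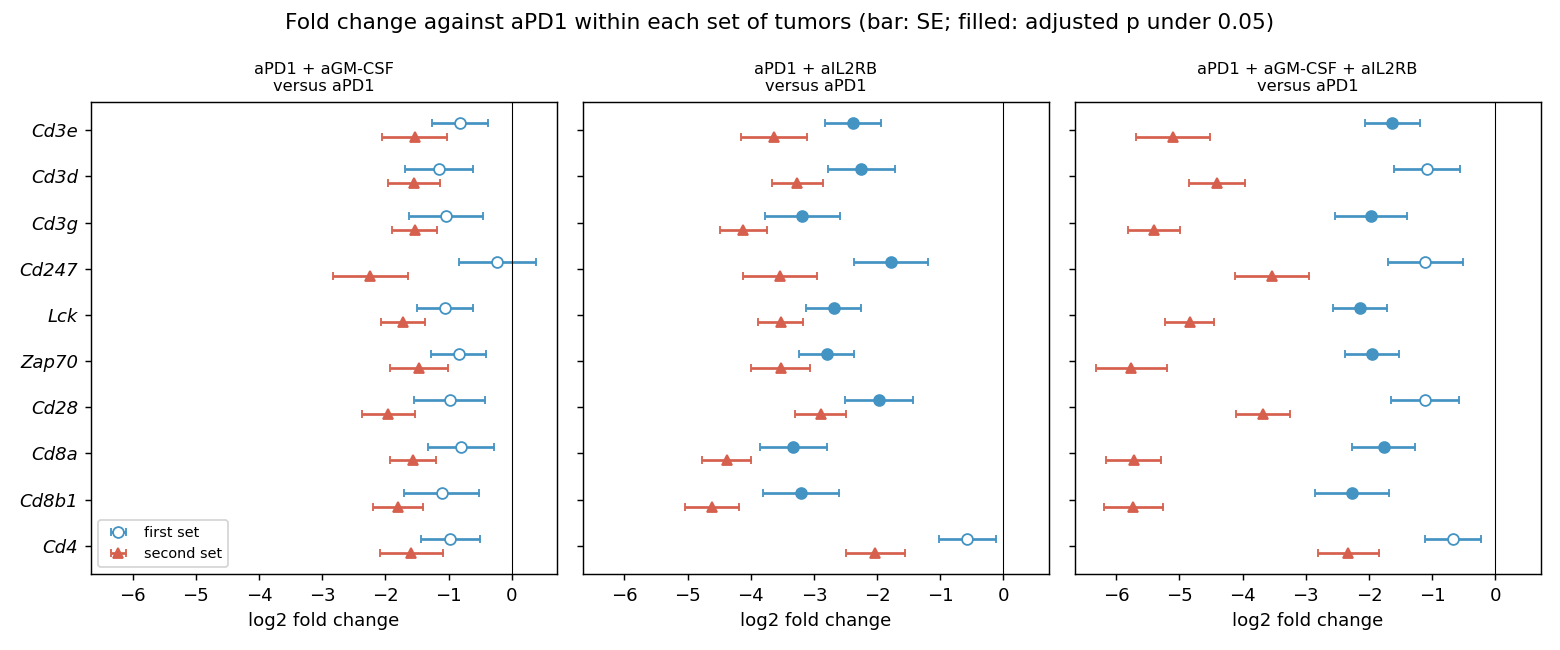
Log2 fold change against aPD1 (x axes) with SE for each member (rows) within the first (blue circles) and second (red triangles) set, for the 3 blockade groups. Filled points have an adjusted p under 0.05, and the gap between sets is widest for aPD1 + aGM-CSF + aIL2RB, where Cd8a was at -1.77 and -5.72.

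The rest of the pathway was read from 40 further genes of TCR signaling, of which 39 were tested. Against isotype, 6 rose under aPD1 and none fell (median log2 0.84), beside 6.17% of all genes called higher, led by the transcription factor Nfatc2 (0.84, SE 0.19, adjusted p = 0.00526), the exchange factor Vav1 (0.78, SE 0.18, adjusted p = 0.00591) and the phosphatase Ptpn6 (0.82, SE 0.20, adjusted p = 0.00914). These are genes that myeloid cells also express. At the other end stood Cd6 (0.72, adjusted p = 0.515), Tcf7 (-0.07, adjusted p = 0.605) and Bcl10 (0.02, adjusted p = 0.882).

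Under aPD1 + aIL2RB, 35 of the 39 fell and 1 rose relative to aPD1 (median log2 -2.06, with 14.5% of all genes called lower), among them the adaptor Lcp2 (-1.17, SE 0.15, adjusted p = 4.23e-07), Thy1 (-1.74, SE 0.22, adjusted p = 2.77e-07) and the kinase gene Prkcq (-1.92, SE 0.26, adjusted p = 5.23e-07). Relative to isotype 12 fell and none rose (median -0.98, with 1.51% of all genes called lower), led by the kinase Txk (-2.62, SE 0.53, adjusted p = 0.00317) and the adaptors Skap1 (-2.94, SE 0.60, adjusted p = 0.00329) and Lax1 (-2.30, SE 0.52, adjusted p = 0.00808). Cblb (-0.03), Bcl10 (-0.01) and Tcf7 (0.00) were at the other end. Under aPD1 + aGM-CSF, 15 fell relative to aPD1 (8.75% of all genes) and none was called relative to isotype (0.0%). With both blockades, 34 fell and 1 rose relative to aPD1 (14.3% of all genes lower), and 7 fell relative to isotype (4.51%).

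Markers of other cells that carry these genes moved beside them. Of 10 NK genes, which include Txk of the list above, 10 fell from aPD1 and 7 from isotype under aPD1 + aIL2RB, against the 14.5% and 1.51% of all genes given above, and the summed NK level ranged from 30.3 to 36.97 CPM in isotype and from 4.85 to 16.6 in aPD1 + aIL2RB tumors. Ncr1, the NK receptor NKp46, was at 0.850 to 1.899 CPM in isotype tumors and at 0 counts in 11 of 11 aPD1 + aIL2RB tumors, at least 105-fold lower against a floor of 3 counts over the group. Gzma fell by 6.21 on the log2 scale from isotype (SE 0.54, adjusted p = 2.23e-10) and Klrb1c by 4.57 (SE 0.50, adjusted p = 4.05e-08). With both blockades, 10 of the 10 NK genes fell from aPD1 and 7 from isotype, against 14.3% and 4.51% of all genes. Ncr1 was at 0 counts in 10 of 11 of those tumors. NK cells can carry Cd247, Lck and Zap70 transcripts, and their part in the values above was not tested.

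Of 8 CD8 effector genes, 7 fell from aPD1 and 4 fell and 1 rose from isotype under aPD1 + aIL2RB. The perforin gene Prf1 fell by 2.51 (SE 0.64, adjusted p = 0.0221) and Nkg7 by 2.19 (SE 0.57, adjusted p = 0.0253), and the chemokine gene Ccl5 rose by 0.60 (SE 0.15, adjusted p = 0.0221). Of 6 regulatory T cell genes, 6 fell from aPD1 and none was called against isotype, with a summed level of 37.4 to 47.0 CPM in isotype and 28.2 to 47.9 in aPD1 + aIL2RB tumors. Foxp3, which defines regulatory T cells, was at a median of 1.73 CPM in isotype and 1.55 in aPD1 + aIL2RB tumors. Of 5 helper T genes 3 were tested, and none was called against isotype. Pdcd1, the gene of PD-1, was at a median of 7.46 CPM in isotype, 12.5 in aPD1 and 2.37 in aPD1 + aIL2RB tumors.

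Dendritic cells and macrophages can carry Cd4 or Cd8a. Of 8 dendritic cell genes none was called between aPD1 + aIL2RB and isotype, with summed levels of 30.3 to 39.1 CPM in isotype and 28.3 to 37.99 in aPD1 + aIL2RB tumors, and of 6 macrophage genes also none, at 1768 to 2097 and 1440 to 1931 CPM. Against aPD1, 3 of the 8 dendritic cell genes fell and 1 rose. Xcr1 (-2.33, SE 0.42, adjusted p = 3.99e-05) and Batf3 (-1.86, SE 0.44, adjusted p = 0.00127) were among the first, and the gene that rose was Zbtb46 (0.34, SE 0.09, adjusted p = 0.00249). The part of these cells in the Cd4 and Cd8a levels was not tested. Of the leukocyte genes, Ptprc (CD45) was at a median of 154 CPM in isotype, 319 in aPD1 and 120 in aPD1 + aIL2RB tumors, and it rose by 0.97 under aPD1 (SE 0.25, adjusted p = 0.013) and fell by 1.29 from aPD1 under aPD1 + aIL2RB (SE 0.20, adjusted p = 5.2e-06). Of 4 neutrophil genes, 3 were tested and none was called against isotype under aPD1 + aIL2RB. Of 6 B cell genes 1 was (Igkc, -2.44, SE 0.60, adjusted p = 0.0168), of 6 gamma-delta T genes, of which 2 were tested, also 1 (Tcrg-C2, -2.55, SE 0.71, adjusted p = 0.0354), and of 7 MC38 and stroma genes none in that comparison.

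**Figure D5:**
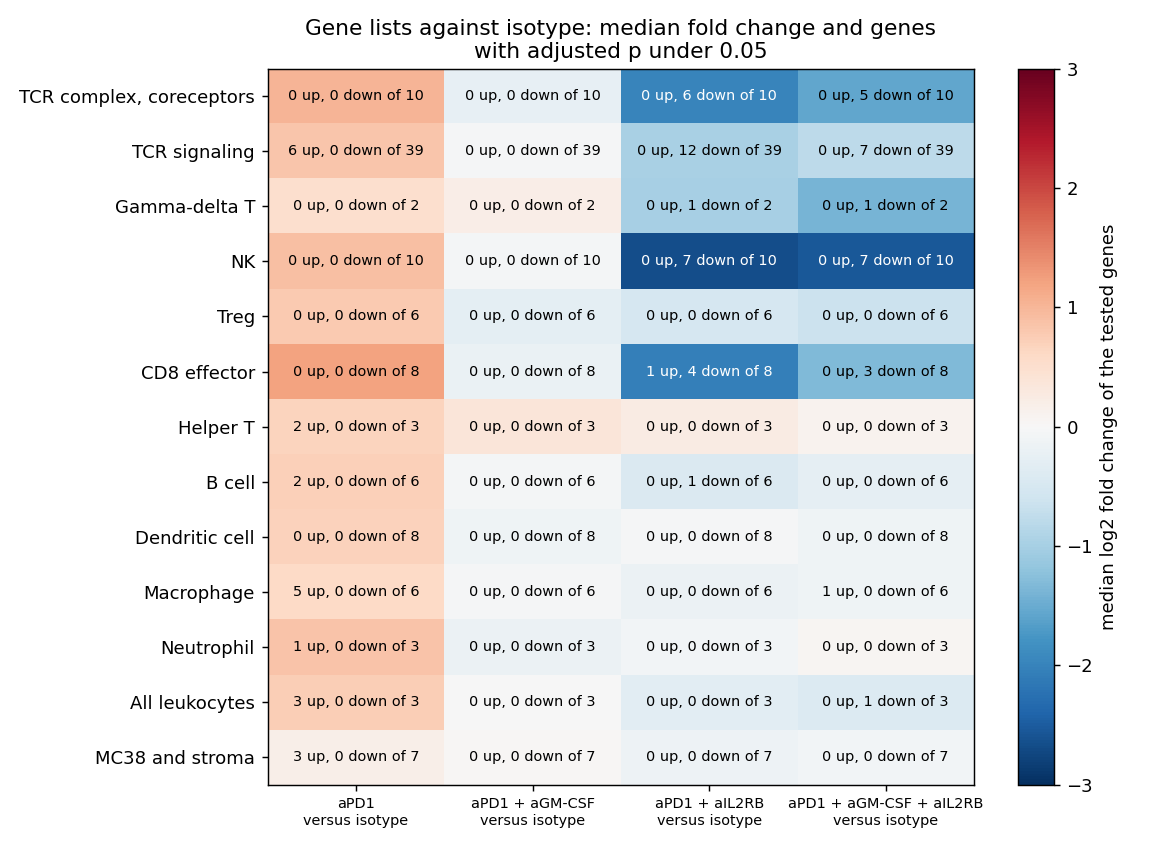
Median log2 fold change against isotype (color) of the tested genes of each list (rows) under the 4 treatments (columns), with the number of genes called up or down by edgeR. The NK and CD8 effector lists and the TCR complex genes are darkest under aPD1 + aIL2RB, with 7 of 10, 4 of 8 and 6 of 10 genes called lower.

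Lastly, the members were compared from tumor to tumor after group means were subtracted from log2 CPM, over 42 tumors. Pearson correlations among the 36 pairs without Cd4 ranged from 0.53 to 0.93 (median 0.80) and among the 9 pairs with Cd4 from 0.50 to 0.74 (median 0.67). With the mean of each set within a group also subtracted, the medians were 0.64 and 0.52. These values share library depth and leukocyte content and are a description only.

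The genes outside the members that were most like each coreceptor differed. Among 13678 genes, those closest to Cd8a were Ipcef1 (r = 0.94), Plbd1 (0.94), Cd74 (0.94), H2-Eb1 (0.94) and H2-Ab1 (0.94), of which the last 3 belong to MHC class II presentation. Those closest to Cd3e were Tigit (0.90), Cd2 (0.88), Nkg7 (0.87), Cd6 (0.86) and Pde1b (0.86). Those closest to Cd4 were Ece1 (0.80), Foxp3 (0.78), Plvap (0.78), Cd6 (0.78) and Stat4 (0.78).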

How the data were processed

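Per the labels and the study's methods, RNA from 42 tumors was prepared with a poly(A) kit and sequenced as 100 bp paired-end reads. The authors aligned reads with Bowtie 1.2.3 to transcriptomes of the Collaborative Cross founder strains (GRCm38) and deposited expected counts per gene, summed over haplotypes and not normalized. Counts were rounded here. Gene names and positions came from GENCODE (GRCm38). In R 4.3.3, edgeR 4.0.16 was run with TMM, filterByExpr (minimum count 10, minimum total 15) and quasi-likelihood tests over all tumors, each of 10 pairs of groups adjusted by the Benjamini-Hochberg method over 16932 genes, with a threshold of 0.05. The SE is the log2 fold change divided by the root of F. Ratios used counts plus 0.5 and exact two-sided permutation tests (100000 draws for groups of 11 and 11), adjusted over 30 tests. Correlations used log2 CPM with a prior count of 2. Python 3.11.15 was used with numpy 2.4.6 and scipy 1.17.1.

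DESeq2 and edgeR were tested on simulated data, and the ratio tests were not. For aPD1 + aIL2RB versus isotype, edgeR recovered 82 of 100 genes changed 2-fold and 100 of 100 changed 4-fold among 16715 genes, with 5 false calls. Recovery at the levels and SE of the members was not tested. No tumors were close to copies (the lowest chi-square over its degrees of freedom for any pair was 5.64). Each label names 1 tumor, and none says more of how tumors were replicated, so p-values measure the spread between these tumors. The members, the lists and the split into sets were chosen with earlier results of these data known. Named genes were the 10 members, up to 3 called genes with the lowest adjusted p per list, for the pathway list also the 3 with the highest, the 5 genes most correlated with Cd3e, Cd8a or Cd4, and Ptprc, Ncr1, Foxp3 and Pdcd1. Alternatives were other normalizations (DESeq2 size factors, library size) and filters, DESeq2 1.42.0, fits of the groups compared, the replicate number as a block, set as a term, each set alone, removal of 5 rRNA genes, and each tumor left out. For fits with a tumor left out, no share of all genes was taken. Leaving out tumors with 0 counts of either gene of a ratio was added after seeing the data. A level of 3 counts equals 0.122 to 0.395 CPM, depending on the tumor.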

Additional observations from a re-analysis of the deposited data

Results flagged for a closer look

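A single tumor stood far from the rest of its group in 2 of 39 groups of values examined with Dixon's criterion, which chance alone does in about 1 of 20. Cd3e in aPD1 + aGM-CSF replicate 4 was at 9.59 CPM, above the other tumors of that group. The log2 Cd8a/Cd3e ratio of aPD1 + aGM-CSF replicate 8 was 0.90, below the others.

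The effect of aPD1 + aGM-CSF + aIL2RB differed between the sets of tumors for several members. In edgeR interaction tests (100 over members and pairs of groups, adjusted over all genes in each pair), 15 passed, all with a lower log2 fold change in the second set than in the first. For the comparison with aPD1, 6.55% of all genes were called in that direction. That share was not taken for the other pairs, so there the counts cannot be set against all genes. Against aPD1 the difference was -3.46 for Cd3e (adjusted p = 0.0059), -3.30 for Cd3d (adjusted p = 0.00662), -3.41 for Cd3g (adjusted p = 0.0095), -3.94 for Cd8a (adjusted p = 0.00241), -3.44 for Cd8b1 (adjusted p = 0.0117), -2.68 for Lck (adjusted p = 0.00838), -3.80 for Zap70 (adjusted p = 0.00261) and -2.55 for Cd28 (adjusted p = 0.031). Against isotype the difference was -3.47 for Cd8a (adjusted p = 0.0404) and -3.55 for Zap70 (adjusted p = 0.0314). Against aPD1 + aGM-CSF the difference was -2.92 for Cd3d (adjusted p = 0.0402), -3.20 for Cd8a (adjusted p = 0.0316) and -3.19 for Zap70 (adjusted p = 0.029). Against aPD1 + aIL2RB the difference was -2.90 for Cd8a (adjusted p = 0.0439) and -3.09 for Zap70 (adjusted p = 0.0263). These comparisons share the aPD1 + aGM-CSF + aIL2RB tumors.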

How the results depend on the processing

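Over all alternatives, 1524 fold changes of members kept direction and side of the threshold, 55 lost and 52 gained a call and 13 reversed. For the ratios these numbers were 507, 65, 3 and 21, and 37 of the counts of called members moved by over 1.5 times. Fits within a set hold fewer tumors and the ratio tests there and under the block allow fewer arrangements. The cause of the other changes was not tested. Depth limits values near 0, and members at 0 counts were found in replicates 8, 9 and 10 of aPD1 + aGM-CSF + aIL2RB.

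Groups share replicate numbers, which the labels do not tie to a litter or day. Tumors of the same number had a mean correlation of deviations between -0.019 and 0.072, and at most 4 pairs of any comparison were over 0.1, so the numbers were not taken to pair the tumors. With 5 or 6 pairs the smallest exact p for a ratio is 0.0625 or 0.0312 before adjustment, and over all 30 ratio tests with the block the lowest adjusted p was 0.0586. With a replicate block, the number of members called was in aPD1 + aGM-CSF 0 beside 7.32% of all genes (versus aPD1), in aPD1 + aGM-CSF + aIL2RB 6 beside 2.94% of all genes (versus aPD1 + aGM-CSF). With a replicate block, the log2 fold change was, with its sign reversed, Cd4 in aPD1 + aIL2RB 0.36 (versus isotype), Cd4 in aPD1 + aGM-CSF + aIL2RB 0.18 (versus isotype), Zap70 in aPD1 + aGM-CSF + aIL2RB -0.094 (versus aPD1 + aIL2RB). With a replicate block, the call of a ratio was lost, at a difference of Cd8a/Cd4 in aPD1 + aIL2RB -3.19 (versus aPD1), -3.06 (versus isotype) and -2.90 (versus aPD1 + aGM-CSF), Cd8a/Cd4 in aPD1 + aGM-CSF + aIL2RB -1.50 (versus aPD1), -1.14 (versus isotype) and -2.57 (versus aPD1 + aGM-CSF), Cd8a/Cd3e in aPD1 + aIL2RB -1.18 (versus aPD1) and -1.03 (versus aPD1 + aGM-CSF), Cd4/Cd3e in aPD1 + aIL2RB 2.01 (versus aPD1), 2.11 (versus isotype) and 1.88 (versus aPD1 + aGM-CSF), Cd4/Cd3e in aPD1 + aGM-CSF + aIL2RB 1.36 (versus aPD1), 1.31 (versus isotype) and 2.07 (versus aPD1 + aGM-CSF), and the difference in log2 ratio changed sign, to Cd8a/Cd3e in aPD1 + aGM-CSF + aIL2RB 0.17 (versus isotype).

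Within the first set alone, the number of members called was in aPD1 + aGM-CSF 0 (versus aPD1), in aPD1 + aGM-CSF + aIL2RB 6 (versus aPD1), 0 (versus isotype) and 0 (versus aPD1 + aGM-CSF). Within the first set alone, the log2 fold change was, with its sign reversed, Cd28 in aPD1 + aGM-CSF + aIL2RB 0.35 (versus isotype). Within the first set alone, the call of a ratio was lost, at a difference of Cd8a/Cd4 in aPD1 + aIL2RB -3.15 (versus aPD1) and -2.46 (versus isotype), Cd8a/Cd4 in aPD1 + aGM-CSF + aIL2RB -1.46 (versus aPD1), -0.77 (versus isotype) and -1.68 (versus aPD1 + aGM-CSF), Cd8a/Cd3e in aPD1 + aIL2RB -1.21 (versus aPD1) and -1.31 (versus aPD1 + aGM-CSF), Cd4/Cd3e in aPD1 + aIL2RB 1.93 (versus aPD1) and 1.72 (versus isotype), Cd4/Cd3e in aPD1 + aGM-CSF + aIL2RB 1.28 (versus aPD1), 1.08 (versus isotype) and 1.41 (versus aPD1 + aGM-CSF), and the difference in log2 ratio changed sign, to Cd8a/Cd3e in aPD1 + aGM-CSF + aIL2RB 0.31 (versus isotype). Within the second set alone, the number of members called was in aPD1 4 (versus isotype), in aPD1 + aGM-CSF 10 (versus aPD1), in aPD1 + aGM-CSF + aIL2RB 8 (versus isotype) and 8 (versus aPD1 + aGM-CSF). Within the second set alone, the log2 fold change was, with its sign reversed, Cd4 in aPD1 + aIL2RB -0.44 (versus aPD1 + aGM-CSF), Cd8a in aPD1 + aGM-CSF + aIL2RB -1.34 (versus aPD1 + aIL2RB), Zap70 in aPD1 + aGM-CSF + aIL2RB -2.24 (versus aPD1 + aIL2RB). Within the second set alone, the call of a ratio was lost, at a difference of Cd8a/Cd4 in aPD1 + aIL2RB -2.31 (versus aPD1), -2.57 (versus isotype) and -2.34 (versus aPD1 + aGM-CSF), Cd8a/Cd4 in aPD1 + aGM-CSF + aIL2RB -4.07 (versus aPD1), -4.33 (versus isotype) and -4.10 (versus aPD1 + aGM-CSF), Cd8a/Cd3e in aPD1 + aIL2RB -0.63 (versus aPD1) and -0.53 (versus aPD1 + aGM-CSF), Cd4/Cd3e in aPD1 + aIL2RB 1.68 (versus aPD1), 2.06 (versus isotype) and 1.80 (versus aPD1 + aGM-CSF), Cd4/Cd3e in aPD1 + aGM-CSF + aIL2RB 3.38 (versus aPD1), 3.76 (versus isotype) and 3.50 (versus aPD1 + aGM-CSF), and the difference in log2 ratio changed sign, to Cd8a/Cd4 in aPD1 -0.26 (versus isotype), Cd8a/Cd4 in aPD1 + aGM-CSF -0.23 (versus isotype), Cd8a/Cd4 in aPD1 + aGM-CSF + aIL2RB -1.76 (versus aPD1 + aIL2RB). In fits of the compared groups alone, the number of members called was in aPD1 8 (versus isotype), in aPD1 + aGM-CSF 9 (versus aPD1), in aPD1 + aGM-CSF + aIL2RB 1 (versus isotype) and 0 (versus aPD1 + aGM-CSF). With set as a term, the number of members called was in aPD1 + aGM-CSF 10 (versus aPD1), in aPD1 + aGM-CSF + aIL2RB 6 (versus aPD1 + aGM-CSF). With the set effect subtracted, the difference in log2 ratio changed sign, to Cd8a/Cd4 in aPD1 + aGM-CSF + aIL2RB -0.036 (versus aPD1 + aIL2RB). With DESeq2, the number of members called was in aPD1 + aGM-CSF 1 beside 9.32% of all genes (versus aPD1). With library size as the only scaling, the number of members called was in aPD1 + aGM-CSF 1 beside 6.61% of all genes (versus aPD1). With all genes of at least 5 counts in total, the number of members called was in aPD1 + aGM-CSF 1 beside 5.63% of all genes (versus aPD1). With Cd8b1 in place of Cd8a, the call of a ratio was lost, at a difference of Cd8a/Cd3e in aPD1 + aIL2RB -1.16 (versus aPD1) and -0.84 (versus aPD1 + aGM-CSF), and the difference in log2 ratio changed sign, to Cd8a/Cd4 in aPD1 + aGM-CSF -0.20 (versus aPD1) and -0.098 (versus isotype). With Cd3d in place of Cd3e, the call of a ratio was lost, at a difference of Cd4/Cd3e in aPD1 + aGM-CSF + aIL2RB 1.47 (versus isotype), and the call of a ratio was gained, at a difference of Cd8a/Cd3e in aPD1 + aGM-CSF + aIL2RB -1.24 (versus aPD1) and -1.38 (versus aPD1 + aGM-CSF), Cd8a/Cd3e in aPD1 + aIL2RB -1.05 (versus isotype). With Cd3g in place of Cd3e, the call of a ratio was lost, at a difference of Cd8a/Cd3e in aPD1 + aIL2RB -0.078 (versus aPD1) and -0.23 (versus aPD1 + aGM-CSF), and the difference in log2 ratio changed sign, to Cd8a/Cd3e in aPD1 + aIL2RB 0.11 (versus isotype), Cd8a/Cd3e in aPD1 + aGM-CSF + aIL2RB 0.029 (versus isotype). Within the second set and without tumors at 0 counts (chosen after seeing the data, and over all tumors this choice changed no ratio call or sign), the call of a ratio was lost, at a difference of Cd8a/Cd4 in aPD1 + aIL2RB -2.31 (versus aPD1), -2.57 (versus isotype) and -2.34 (versus aPD1 + aGM-CSF), Cd8a/Cd4 in aPD1 + aGM-CSF + aIL2RB -3.44 (versus aPD1), -3.70 (versus isotype) and -3.46 (versus aPD1 + aGM-CSF), Cd8a/Cd3e in aPD1 + aIL2RB -0.63 (versus aPD1) and -0.53 (versus aPD1 + aGM-CSF), Cd4/Cd3e in aPD1 + aIL2RB 1.68 (versus aPD1), 2.06 (versus isotype) and 1.80 (versus aPD1 + aGM-CSF), Cd4/Cd3e in aPD1 + aGM-CSF + aIL2RB 2.55 (versus aPD1), 2.94 (versus isotype) and 2.68 (versus aPD1 + aGM-CSF), and the difference in log2 ratio changed sign, to Cd8a/Cd4 in aPD1 -0.26 (versus isotype), Cd8a/Cd4 in aPD1 + aGM-CSF -0.23 (versus isotype), Cd8a/Cd4 in aPD1 + aGM-CSF + aIL2RB -1.12 (versus aPD1 + aIL2RB).

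With each tumor left out in turn, the number of members called ranged over in aPD1 + aGM-CSF 0 to 3 (versus aPD1), in aPD1 + aGM-CSF + aIL2RB 2 to 7 (versus isotype) and 1 to 6 (versus aPD1 + aGM-CSF). Likewise the log2 fold change ranged over Cd4 in aPD1 + aIL2RB -0.32 to 0.20 (versus isotype) and -0.068 to 0.29 (versus aPD1 + aGM-CSF), Cd4 in aPD1 + aGM-CSF + aIL2RB -0.48 to 0.051 (versus isotype), Zap70 in aPD1 + aGM-CSF + aIL2RB -0.23 to 0.47 (versus aPD1 + aIL2RB). The difference in log2 ratio ranged over Cd8a/Cd4 in aPD1 -0.094 to 0.39 (versus isotype), Cd8a/Cd4 in aPD1 + aGM-CSF + aIL2RB -2.80 to -2.15 (versus isotype) and -0.14 to 0.51 (versus aPD1 + aIL2RB), Cd8a/Cd3e in aPD1 + aIL2RB -1.02 to -0.73 (versus aPD1), Cd8a/Cd3e in aPD1 + aGM-CSF + aIL2RB -0.79 to 0.087 (versus aPD1), -0.52 to 0.36 (versus isotype) and -0.80 to 0.075 (versus aPD1 + aGM-CSF), Cd4/Cd3e in aPD1 + aGM-CSF + aIL2RB 1.97 to 2.61 (versus isotype).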
